A study of Mus musculus with 58 samples.

Results

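The glucocorticoid receptor gene Nr3c1 and 6 of its established target genes, Fkbp5, Tsc22d3, Sgk1, Zbtb16, Klf9 and Errfi1, were followed through the day in retinas of diabetic mice and their controls. These 7 genes were taken by name from the 52459 genes of the count table, by gene name alone, although results of these data were known when they were chosen. The study sequenced total RNA of retinas from male mice at 4 months of age, all kept under a cycle of 12 h light and 12 h dark. Diabetic mice were heterozygous for the Ins2Akita mutation, and control mice were their male littermates without it, on the C57BL/6 background. There were 30 control libraries, with 5, 6, 5, 5, 5 and 4 at zeitgeber time (ZT, hours after lights on) 1, 5, 9, 13, 17 and 21, and 28 diabetic libraries, with 5, 5, 5, 4, 4 and 5 at the same times. Ins2Akita misfolds proinsulin in pancreatic beta cells, so these mice model insulin-deficient diabetes and not insulin resistance. Mice of both genotypes were perfused before dissection, and retinas of the dark phase were collected under dim red light.

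Glucocorticoids are adrenal steroids whose release follows a daily rhythm and, in the nocturnal mouse, peaks around the onset of darkness. In the cell they bind the receptor encoded by Nr3c1, which leaves a complex with a heat shock protein and its cochaperones, enters the nucleus and binds paired half-sites called glucocorticoid response elements. Fkbp5 encodes a cochaperone that lowers the affinity of the receptor for its ligand and is itself induced by the receptor, Tsc22d3 encodes the anti-inflammatory leucine zipper protein GILZ, Sgk1 encodes a kinase that regulates ion channels and transporters, Errfi1 encodes an inhibitor of epidermal growth factor receptor signalling, and Zbtb16 and Klf9 encode zinc finger transcription factors. In the retina the receptor is known mainly from Muller glia, and glucocorticoids are used in the clinic against diabetic macular oedema.

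Library totals ranged from 7773117 to 22147398 counts, and all 7 genes were among the 19120 that passed the filter on low counts, a median normalised count above 4. Levels are given as CPM (counts of a gene scaled to the TMM-adjusted total of its library). Markers of Muller glia, the main glia of the retina, summed to a median of 2938 CPM in control and 2923 CPM in diabetic libraries. The 6 lens markers summed to a median of 1.56 CPM in control and 1.44 CPM in diabetic libraries, with Lim2 at 0 in every library. They reached up to 1873 CPM in 3 control libraries (ZT1 replicate 6, ZT17 replicate 5 and ZT21 replicate 2) and up to 39.3 CPM in 4 diabetic libraries (ZT1 replicate 3, ZT9 replicates 4 and 5, and ZT13 replicate 4). Values without these 7 libraries are given where a call of the 7 genes depended on them. The p-values measure the spread between these libraries, and in whole retina fewer cells of a type and less RNA per cell cannot be told apart.

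Sgk1 was the most abundant of the 7 genes per length of transcript. Divided by the length of all its annotated exons, its level had a median of 78.6 CPM per kb over the 58 libraries. Klf9 had a median of 26.7 CPM per kb, Nr3c1 of 14.3 CPM per kb and Errfi1 of 8.16 CPM per kb. No library of one of these 4 genes reached the range of the next, from 64.6 to 96.5 CPM per kb for Sgk1, from 20.8 to 34.4 for Klf9, from 11.9 to 17.0 for Nr3c1 and from 6.67 to 10.2 for Errfi1. Tsc22d3 had a median of 6.31 CPM per kb and overlapped Errfi1 in its range, while Fkbp5 and Zbtb16, with medians of 2.62 and 2.09 CPM per kb, overlapped each other and lay below Tsc22d3. No exon of the 7 genes was shared with another annotated gene.

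Promoter sequences from RefSeq on build GRCm38.p6 were found for 5 of the 7 genes, not for Nr3c1 and Zbtb16, and are shown for 2 of them, Fkbp5 because it carried the difference between genotypes and Sgk1 because it held the only full glucocorticoid response element among the windows found. Each window spans 250 bases before to 50 after an annotated start, and capitals mark the motifs. The motifs, searched on both strands, were the full element GNACANNNTGTNC, its inner letters ACANNNTGT, which every full element contains, and the E-box CACGTG, which is bound by the circadian activators CLOCK and BMAL1.
Fkbp5, chr17:28486100-28486399, minus strand: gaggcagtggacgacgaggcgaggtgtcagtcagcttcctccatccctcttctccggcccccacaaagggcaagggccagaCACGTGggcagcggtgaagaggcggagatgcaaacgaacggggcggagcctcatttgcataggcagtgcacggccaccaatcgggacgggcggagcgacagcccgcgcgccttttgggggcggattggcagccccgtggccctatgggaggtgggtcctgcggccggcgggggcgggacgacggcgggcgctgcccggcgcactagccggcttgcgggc
Sgk1, chr10:21993640-21993939, plus strand: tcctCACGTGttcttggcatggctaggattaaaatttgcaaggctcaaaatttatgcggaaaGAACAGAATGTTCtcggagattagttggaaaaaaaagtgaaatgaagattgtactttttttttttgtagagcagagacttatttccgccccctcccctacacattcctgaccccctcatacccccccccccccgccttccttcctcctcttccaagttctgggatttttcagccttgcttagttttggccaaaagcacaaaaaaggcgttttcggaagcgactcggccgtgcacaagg
The Sgk1 window, which was 1 of 6 for this gene, held the element GAACAGAATGTTC starting at position -188 relative to the annotated start and an E-box starting at -246. A second Sgk1 window held the inner letters alone, starting at -127. The Fkbp5 window held an E-box starting at -169 and neither form of the response element. The 2 windows of Errfi1, the 1 of Klf9 and the 3 of Tsc22d3 held none of the 3 motifs. Of all 32851 mouse windows of this length, 0.475% held the full element, 6.85% its inner letters and 7.15% the E-box, so these matches describe letters and not binding.

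The first comparison asked which of the 7 genes differed between diabetic and control retinas over all time points. Fkbp5 was the 1 gene of the 7 that passed the test, against 2.99% of all genes tested, and it was higher in diabetic retinas by 0.23 on the log2 scale. Fkbp5 (chr17:28399094-28517527, minus strand, GRCm38) measured 28.1 ± 5.22 CPM in diabetic retinas (SD, n = 28) and 23.9 ± 2.07 CPM in controls (SD, n = 30). In control libraries it ran from 19.8 through a median of 23.8 to 28.5 CPM. In diabetic libraries it ran from 21.1 through a median of 28.5 to 42.6 CPM, so the ranges overlapped at their lower part and the highest diabetic values had no counterpart among controls. The standard error of the log2 difference was 0.052 and its 95% interval 0.12 to 0.33, with an adjusted p of 0.00560. Leaving out any 1 library kept the log2 difference between 0.20 and 0.24 and the adjusted p at or below 0.0106. Without the 7 libraries with lens markers the log2 difference was 0.22 with an adjusted p of 0.0223. Pigment epithelium markers summed to a median of 85.1 CPM in control and 60.8 CPM in diabetic libraries, with overlapping ranges, and the lowest adjusted p among the 6 tested was 0.426. When the contrasts within time points were averaged instead, 1 of the 6 and 1 of 6 endothelium markers were called lower in diabetic retinas (adjusted p of 0.0145 and 0.0434). Of the microglia markers 1 of 5 tested was lower in diabetic retinas, with sums of 15.4 to 24.9 CPM in control and 14.2 to 24.2 CPM in diabetic libraries, and of the lens markers 1 of 3 was lower. The part of these cell types in the Fkbp5 difference was not tested.

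The receptor gene itself was slightly lower in diabetic retinas without passing the test. Nr3c1 (chr18:39410545-39519421, minus strand) measured 107 ± 7.98 CPM in diabetic retinas (SD, n = 28) and 113 ± 8.0 CPM in controls (SD, n = 30). Its values spanned 91.5 to 124 CPM in diabetic and 97.3 to 131 CPM in control libraries, so the genotypes overlapped over most of their range. The log2 difference was -0.09 (95% interval -0.14 to -0.03) with an adjusted p of 0.0803. The adjusted p was 0.0461 without control ZT17 replicate 1 and 0.0435 without diabetic ZT21 replicate 1, the 2 libraries whose removal brought it under 0.05. It was 0.335 without the 7 libraries with lens markers, where the log2 difference was -0.06.

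The other 5 target genes did not pass the test for genotype. Klf9 (chr19:23141226-23168134, plus strand) differed by 0.08 on the log2 scale (95% interval -0.02 to 0.19, adjusted p = 0.450). Zbtb16 (chr9:48654297-48836222, minus strand) had the widest interval, from -0.13 to 0.30 around a log2 difference of 0.08. For Tsc22d3 (chrX:140539528-140600659, minus strand), Sgk1 (chr10:21882184-21999903, plus strand) and Errfi1 (chr4:150853919-150868892, plus strand), the log2 differences lay between -0.02 and -0.01. The intervals of these 3 genes reached from -0.13 to 0.09 for Tsc22d3, from -0.08 to 0.07 for Sgk1 and from -0.09 to 0.04 for Errfi1. A rise of the size measured for Fkbp5 therefore lay outside the intervals of Tsc22d3, Sgk1, Klf9 and Errfi1, and inside that of Zbtb16.

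**Figure D1:**
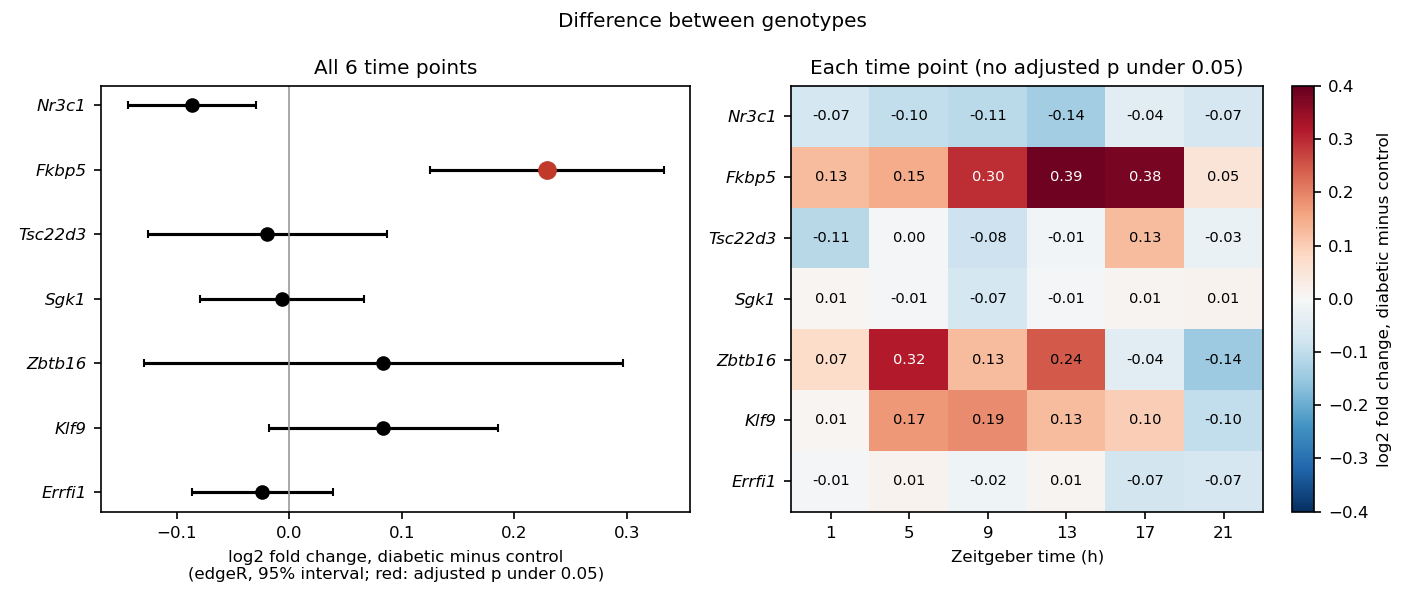
Left, log2 fold change of each gene between diabetic and control retinas over all 6 time points with its 95% interval from edgeR, with Fkbp5 in red as the only gene past an adjusted p of 0.05. Right, the log2 fold change at each zeitgeber time, where none passed the test. The largest values are those of Fkbp5 at ZT13 and ZT17 (0.39 and 0.38), followed by Zbtb16 at ZT5 (0.32) and Fkbp5 at ZT9 (0.30).

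At single time points none of the 42 combinations of gene and time passed the edgeR test. Few genes of any kind did so, with 0.0105% of the genes tested called at ZT1, 0.0209% at ZT5 and 0.00523% at ZT9. The share was 0.167% at ZT17, and it was 0% at both ZT13 and ZT21. At ZT13 and ZT21, where no gene was called, 852 and 892 genes had an unadjusted p under 0.05, and DESeq2 called 1 and 2 genes. Of the 42 combinations 5 had an unadjusted p under 0.05, and DESeq2 called none. The fitted Fkbp5 difference was not the same at each time, although no interaction of genotype and time was called. It was 0.13 on the log2 scale at ZT1 and 0.15 at ZT5, then 0.30, 0.39 and 0.38 over the next 3 time points, and 0.05 at ZT21.

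The Fkbp5 values of single libraries show where the genotypes overlapped. At ZT17 the diabetic libraries held 29.5, 29.8, 31.0 and 42.6 CPM and the control libraries 21.1, 25.7, 25.9, 26.5 and 28.5 CPM. All diabetic libraries thus lay above all control libraries at this time, the highest of them standing well clear of the other diabetic libraries. The share of all genes separated in this way was not counted. At ZT13 the diabetic libraries held 24.9, 29.3, 34.0 and 40.0 CPM and the control libraries 23.0, 23.0, 24.9, 25.5 and 25.7 CPM, so that 1 diabetic library lay among the controls. At ZT9 the diabetic libraries held 24.1, 30.1, 30.2, 32.4 and 34.2 CPM and the control libraries 22.9, 23.3, 23.8, 26.0 and 26.7 CPM, again with 1 diabetic library among the controls. At ZT21, in contrast, the diabetic range from 21.1 to 29.1 CPM enclosed the control range from 22.0 to 27.2 CPM. The adjusted p was 0.125 at ZT17 and 0.641 at ZT13, and the ZT17 difference was 0.24 without the highest diabetic library.

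**Figure D2:**
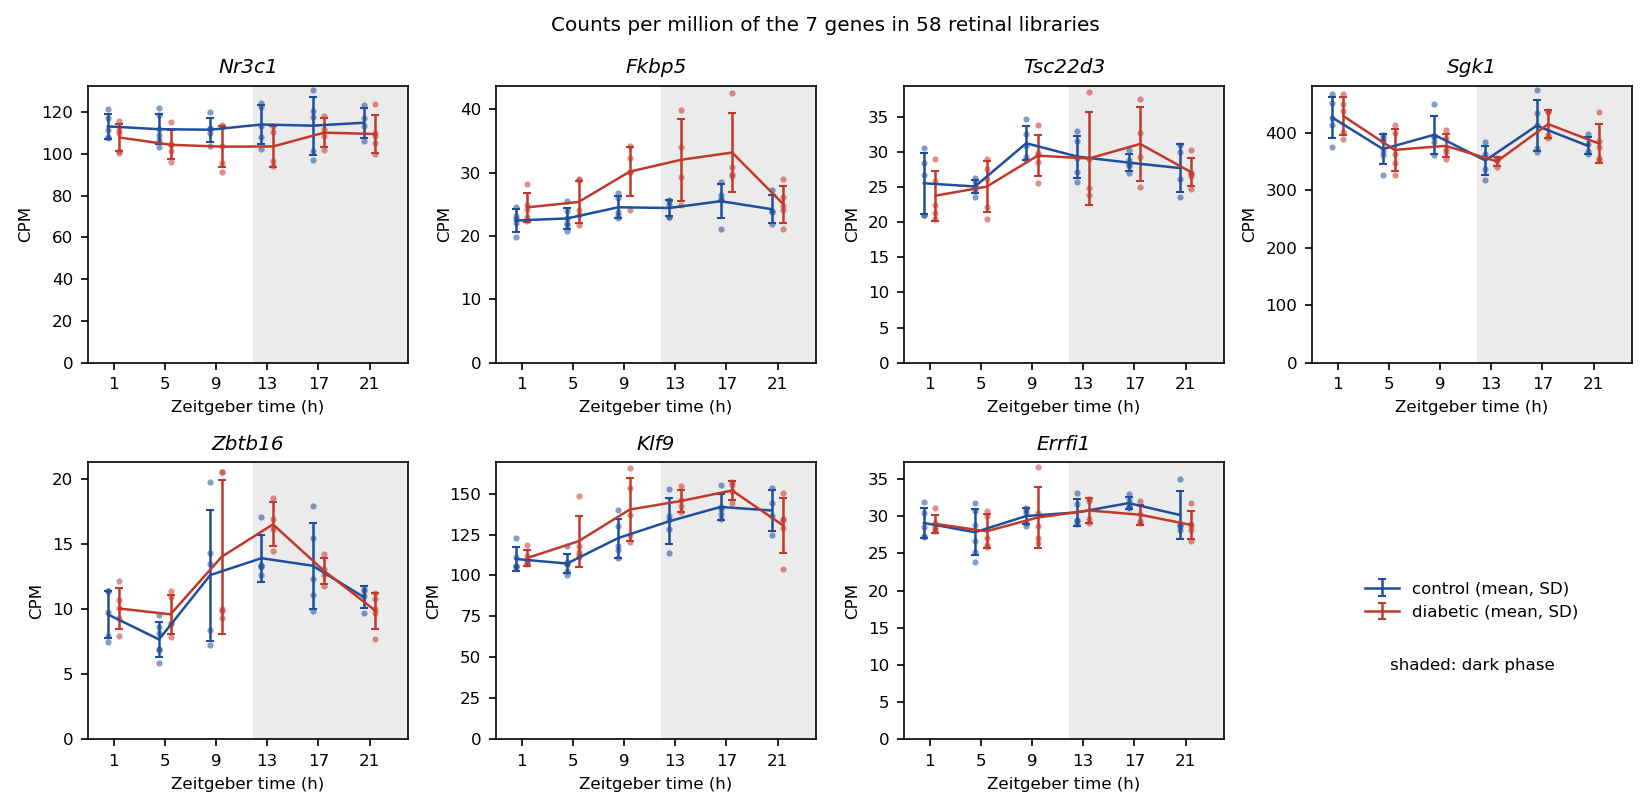
CPM of each gene against zeitgeber time, with 1 point per library, lines joining group means, bars for the SD and the dark phase shaded. Fkbp5 means lie furthest apart from ZT9 to ZT17, Klf9 and Zbtb16 climb into the dark phase in both genotypes, Sgk1 dips to 352 and 350 CPM at ZT13, and Nr3c1 stays within 104 to 115 CPM.

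The next comparison asked which genes followed a daily rhythm, by a cosine with a period of 24 h. In control retinas 2 of the 7 genes, Klf9 and Zbtb16, were rhythmic, against 12.2% of all genes tested. In diabetic retinas 4 of the 7, Klf9, Zbtb16, Fkbp5 and Tsc22d3, were rhythmic, against 14.3% of all genes tested. All these peaks fell in the early to middle part of the dark phase. The same test called 2 of 6 pigment epithelium, 2 of 6 Muller glia, 2 of 6 endothelium and 3 of 3 lens markers in control retinas. In diabetic retinas it called 3 of 6 pigment epithelium, 2 of 6 Muller glia, 1 of 6 endothelium and 1 of 5 microglia markers, and the part of these cell types in the rhythms of the 7 genes was not tested. Without the 7 libraries with lens markers it called 1 of 6 pigment epithelium, 3 of 6 Muller glia, 1 of 6 endothelium and 0 of 2 lens markers in control retinas. In diabetic retinas these counts were then 5 of 6, 3 of 6, 1 of 6 and 0 of 2, with 1 of 5 microglia markers. Nr3c1 was rhythmic in neither genotype, with a fitted ratio of peak to trough of 1.02 in control and 1.07 in diabetic retinas and adjusted p-values of 0.905 and 0.465. Its fitted amplitude was 0.02 log2 units (SE 0.027) in control and 0.05 (SE 0.028) in diabetic retinas.

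Klf9 had the strongest statistical support in both genotypes. In control retinas it was lowest at ZT5, where the 6 libraries ran from 100 through a median of 107 to 118 CPM, and highest at ZT17, where the libraries held 134, 137, 141, 142 and 155 CPM. Every control library at ZT17 was above every one at ZT5. In diabetic retinas it was lowest at ZT1, with 107, 108, 109, 112 and 118 CPM, and highest at ZT17, with 144, 151, 155 and 157 CPM, again without overlap. The fitted peak lay at ZT16.5 (SE 0.575 h) in control and at ZT14.2 (SE 0.657 h) in diabetic retinas. The fitted ratio of peak to trough was 1.34 in control and 1.35 in diabetic retinas, with adjusted p-values of 1.75e-05 and 4.44e-05.

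Zbtb16 had the largest daily amplitude of the 7 genes in both genotypes. In control retinas its 6 libraries at ZT5 ran from 5.83 through a median of 7.54 to 9.52 CPM, and at ZT13 the libraries held 12.6, 13.2, 13.3, 13.4 and 17.0 CPM. In diabetic retinas it held 7.83, 8.86, 8.91, 10.9 and 11.4 CPM at ZT5 and 14.4, 16.1, 16.9 and 18.5 CPM at ZT13. In both genotypes the ZT13 libraries lay above all ZT5 libraries. The fitted ratio of peak to trough was 1.72 in control (adjusted p = 0.00177) and 1.68 in diabetic retinas (adjusted p = 0.00208), with peaks at ZT15.1 (SE 0.874 h) and ZT13.1 (SE 0.821 h). The call was lost in control retinas without ZT5 (adjusted p = 0.113) and in diabetic retinas without ZT13 (adjusted p = 0.0882). At ZT9 its values split within both genotypes, with 7.21, 8.36, 13.4, 14.2 and 19.7 CPM in control and 9.26, 9.80, 9.96, 20.5 and 20.5 CPM in diabetic retinas. The 2 diabetic libraries at 20.5 CPM were those with lens markers at this time (36.8 and 33.4 CPM in sum), while the control libraries at ZT9 had lens sums of at most 3.35 CPM. These 2 diabetic libraries were replicates 4 and 5, and replicates 4 and 5 were also the highest control libraries at ZT9. The cause of this split was not tested. Without the 7 libraries with lens markers the adjusted p of the Zbtb16 rhythm was 3.08e-04 in control and 0.0391 in diabetic retinas.

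Fkbp5 was called rhythmic by the cosine test in diabetic and not in control retinas, whereas a rank test called it in both (unadjusted permutation p of 0.0232 in control and 0.00167 in diabetic retinas). That test asked for an unadjusted p under 0.05 and a minimum fold between the highest and the lowest single library, which was 1.44-fold in control retinas, where the highest and lowest group means differed by 1.14-fold. Its diabetic group means went from 24.5 ± 2.26 CPM at ZT1 (SD, n = 5) to 33.2 ± 6.29 CPM at ZT17 (SD, n = 4) and returned to 25.04 ± 2.91 CPM at ZT21 (SD, n = 5). Its control means stayed between 22.5 CPM at ZT1 and 25.5 CPM at ZT17. The fitted ratio of peak to trough was 1.38 in diabetic retinas, with a peak at ZT13.4 (SE 0.868 h) and an adjusted p of 1.63e-04, and 1.1196 in control retinas, with an adjusted p of 0.350. The diabetic call held without any 1 library, at adjusted p-values up to 0.00122. This pair of calls does not show that the rhythm differed, which was tested separately.

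Tsc22d3 passed the cosine test in diabetic retinas with less margin. The diabetic libraries held 20.4, 21.3, 22.4, 25.9 and 29.0 CPM at ZT1 and 25.1, 29.4, 32.7 and 37.6 CPM at ZT17, and these groups overlapped. The fitted ratio of peak to trough was 1.28, with a peak at ZT14.2 (SE 1.16 h) and an adjusted p of 0.0165. The call was lost without diabetic ZT13 replicate 1 (adjusted p = 0.0654), whose 38.5 CPM was the highest of all 58 libraries, and without ZT1, ZT5 or ZT17 (adjusted p of 0.134, 0.0580 and 0.108). In control retinas the ratio was 1.205 with a peak at ZT13.1 and an adjusted p of 0.114, and the highest group mean was at ZT9, where the libraries held 28.9, 29.3, 30.9, 32.6 and 34.8 CPM. The rank test called Tsc22d3 in both genotypes (unadjusted permutation p of 0.0029 in control and 0.0344 in diabetic retinas). The calls of the cosine test therefore do not show that its rhythm differed.

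Errfi1 and Sgk1 were not called by the cosine test over all time points, and Sgk1 was called in diabetic retinas without ZT21 (adjusted p = 0.0465). The fitted ratio of peak to trough of Errfi1 was 1.1198 in control (adjusted p = 0.0987) and 1.08 in diabetic retinas (adjusted p = 0.396). Sgk1 had ratios of 1.096 and 1.122 with adjusted p-values of 0.402 and 0.2001. Its group means were highest at ZT1 and ZT17 and lowest at ZT13 in both genotypes. A test for any difference among the 6 time points called Sgk1 in control (adjusted p = 0.0288) and in diabetic retinas (adjusted p = 0.0269). That test called 3 of the 7 genes in control and 4 in diabetic retinas, against 9.06% and 10.2% of all genes tested. Besides Sgk1 these were Klf9 and Zbtb16 in both genotypes and Fkbp5 in diabetic retinas.

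**Figure D3:**
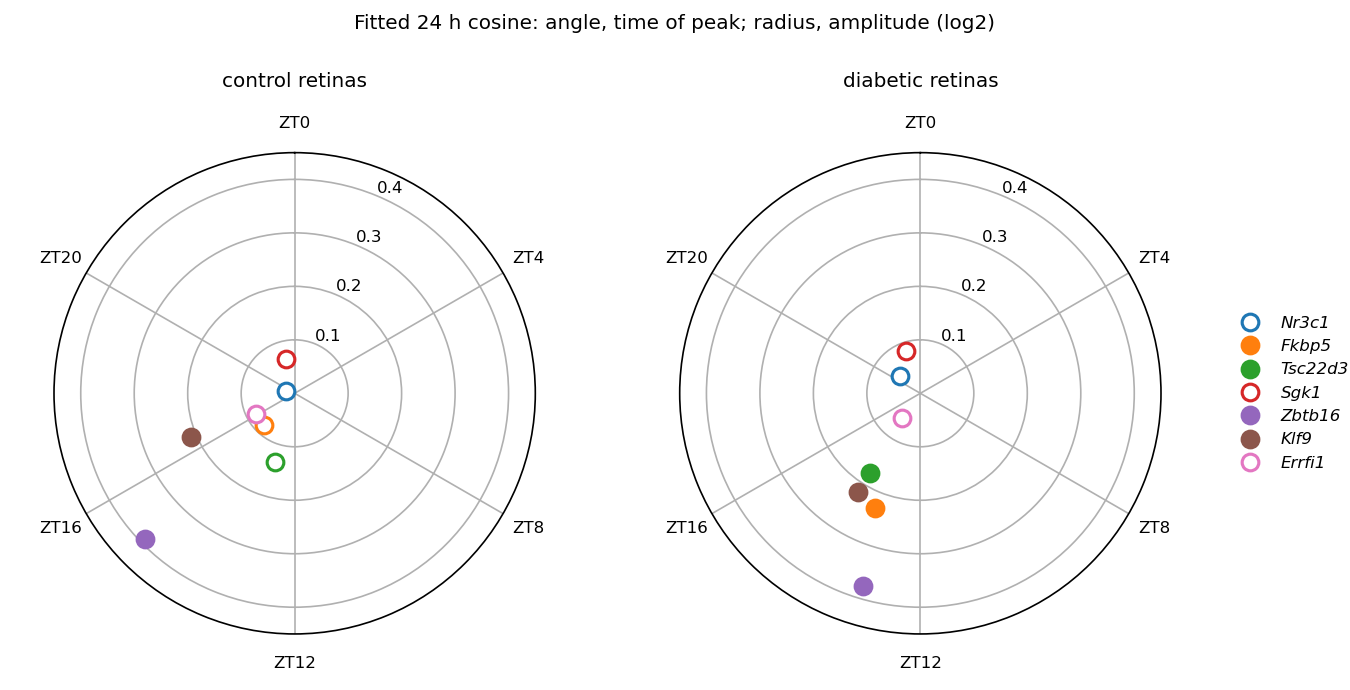
Fitted 24 h cosine of each gene in control (left) and diabetic (right) retinas, with the time of the peak as the angle and the amplitude in log2 units as the distance from the centre. Filled points passed the test, namely Klf9 and Zbtb16 in control and Klf9, Zbtb16, Fkbp5 and Tsc22d3 in diabetic retinas, and their peaks lie between ZT13.1 and ZT16.5.

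No gene of the 7 was called for a difference in rhythm between genotypes. The edgeR test of the difference in cosine and sine terms called 0% of all genes, with 657 genes at an unadjusted p under 0.05, and DESeq2 called none of all genes. Fkbp5 and Klf9 were the 2 genes of the 7 with an unadjusted p under 0.05, at 0.0260 and 0.0357, and the adjusted p was 1.00 for both. For Fkbp5 the fitted amplitude was 0.23 log2 units (SE 0.054) in diabetic and 0.08 (SE 0.028) in control retinas. For Klf9 the amplitudes were alike, 0.22 and 0.21, and the fitted peak was earlier in diabetic retinas, at the times given above. A test of any interaction between genotype and time point gave adjusted p-values of 1.00 for all 7 genes.

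Time points 12 h apart were compared within each genotype, to show the change from day to night without a fitted curve. Between midnight (ZT17) and midday (ZT5), 3 of the 7 genes were called in control retinas, against 15.1% of all genes tested, and 2 in diabetic retinas, against 7.36%, all of them higher at ZT17. In control retinas these were Zbtb16 by 0.80 (SE 0.19, adjusted p = 0.00306), Klf9 by 0.40 (SE 0.078, adjusted p = 2.62e-04) and Errfi1 by 0.19 (SE 0.069, adjusted p = 0.0463), all on the log2 scale. In diabetic retinas they were Fkbp5 by 0.39 (SE 0.11, adjusted p = 0.0142) and Klf9 by 0.33 (SE 0.086, adjusted p = 0.00960). Zbtb16 differed by 0.44 in diabetic retinas without passing the test (adjusted p = 0.201). The Klf9 and Zbtb16 calls at this contrast held without any 1 library. Pigment epithelium markers moved with the same contrast, 2 of the 6 tested being called in control and 3 in diabetic retinas, all higher at ZT17, and Mlana, the seventh, was below the filter. Their sum ran from 23.6 to 80.2 CPM at ZT5 and from 63.3 to 146 CPM at ZT17 in control libraries, and from 15.1 to 20.3 CPM and from 48.5 to 106 CPM in diabetic libraries. Of the Muller glia markers 2 of 6 were called in control retinas, both higher at ZT17, and the lowest adjusted p of the list in diabetic retinas was 0.0568. Their sum ran from 2593 to 2876 CPM at ZT5 and from 3085 to 3314 CPM at ZT17 in control libraries, without overlap, and from 2406 to 3148 CPM and from 2944 to 3442 CPM in diabetic libraries. Of the endothelium markers 1 of 6 was lower at ZT17 in control retinas (adjusted p = 0.0248). The 3 lens markers tested were called higher at ZT17 in control retinas, with a lowest adjusted p of 0.00537. The part of these lists in the changes of the 7 genes was not tested.

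The remaining midnight calls were lost without some of the single libraries. The 5 control libraries of Errfi1 at ZT17 held 31.1, 31.2, 31.4, 32.2 and 33.0 CPM, and the 6 at ZT5 ran from 23.9 through a median of 27.8 to 31.8 CPM, so the groups overlapped at the top of the ZT5 range. Its call was lost when any of 10 libraries was left out, namely all 5 of control ZT17, replicates 1, 2, 3 and 5 of control ZT5 and diabetic ZT21 replicate 1, with adjusted p-values up to 0.152 and log2 differences from 0.15 to 0.20. Without a filter on low counts the log2 difference was 0.21 and the adjusted p 0.0872. The Fkbp5 call was lost without diabetic ZT17 replicate 5, where the log2 difference was 0.25 and the adjusted p 0.193, and without diabetic ZT5 replicate 5, where they were 0.34 and 0.0541.

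Sgk1 was lower after dusk (ZT13) than after dawn (ZT1) in both genotypes. The log2 difference of ZT13 from ZT1 was -0.28 in control retinas (SE 0.070, adjusted p = 0.0346) and -0.29 in diabetic retinas (SE 0.075, adjusted p = 0.0277). Sgk1 was the 1 gene of the 7 called in control retinas, against 0.847% of all genes tested, and 1 of 2 called in diabetic retinas, against 1.4%. The control libraries held 375, 414, 426, 451 and 468 CPM at ZT1 and 317, 337, 358, 363 and 384 CPM at ZT13, with 1 library of each group inside the range of the other. The diabetic libraries held 388, 401, 438, 450 and 467 CPM at ZT1 and 340, 350, 354 and 356 CPM at ZT13, without overlap. Each call was close to the threshold. It was lost when any of 6 libraries of the control groups was left out (ZT1 replicates 1, 2 and 6, ZT13 replicates 1, 2 and 4, with adjusted p up to 0.120 and log2 differences from -0.29 to -0.24) and when any of 7 of the diabetic groups was (ZT1 replicates 1, 2 and 5, ZT13 replicates 1, 3, 4 and 5, with adjusted p up to 0.0936 and log2 differences from -0.30 to -0.26). Without a filter on low counts the adjusted p-values were 0.0519 and 0.0557, at log2 differences of -0.28 and -0.29. Without the 7 libraries with lens markers the log2 differences were -0.28 and -0.30, with adjusted p-values of 0.0975 and 0.0848.

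Klf9 was the other gene called in this contrast in diabetic retinas, where it was higher at ZT13 than at ZT1 by 0.39 on the log2 scale (SE 0.086, adjusted p = 0.00706). Its adjusted p was 0.0563 without the 7 libraries with lens markers, where the log2 difference was 0.35. In control retinas Klf9 differed by 0.28 (adjusted p = 0.0951). Fkbp5 and Zbtb16 differed by 0.38 and 0.71 in diabetic retinas, with adjusted p-values of 0.0560 and 0.0630. Pigment epithelium markers moved with the contrast of ZT13 and ZT1 too, 1 of 6 being called higher at ZT13 in control and 3 of 6 in diabetic retinas. Their sum ran from 15.7 to 68.8 CPM at ZT1 and from 30.3 to 133 CPM at ZT13 in control libraries, and from 28.4 to 51.3 CPM and from 80.5 to 200 CPM in diabetic libraries. Of the endothelium markers 1 of 6 was called lower at ZT13 in each genotype, as was 1 of 3 lens markers in control retinas, and the part of these lists was not tested. Between ZT21 and ZT9 none of the 7 genes passed edgeR or DESeq2 in either genotype, against 2.33% of all genes tested in control and 5.08% in diabetic retinas. At this contrast an unadjusted p under 0.05 was found for 1 of the 7 genes in controls and for 2 in diabetic mice.

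Genes around the receptor were read from a list of 20 that encode chaperones, cochaperones and coregulators of steroid receptors and, as Nr3c2, the mineralocorticoid receptor, which also binds corticosterone, all of which passed the filter. None of the 20 differed between genotypes over all time points by edgeR or DESeq2, and none had an unadjusted p under 0.05, with a median log2 difference of -0.02 against 0.0012 over all genes. From ZT5 to ZT17, 11 of the 20 rose and none fell in control retinas, against 15.1% of all genes called in either direction, with a median log2 difference of 0.26 against -0.03 over all genes. In diabetic retinas 5 rose and none fell, against 7.36%, with a median of 0.15 against -0.01. Pigment epithelium and Muller glia markers moved in this contrast as given above, and the 3 lens markers tested were called higher in control retinas, where 1 of the 5 ZT17 libraries held 1295 CPM of them. Their part was not tested, and without the 7 libraries with lens markers 13 and 5 of the 20 rose. In the other contrasts at most 2 of the 20 were called, 1 and 2 higher at ZT21 than at ZT9 in control and diabetic retinas and 1 lower at ZT13 than at ZT1 in diabetic retinas. This last call was lost without the 7 libraries with lens markers. From ZT5 to ZT17 the heat shock cognate Hspa8 rose by 0.79 in control retinas (adjusted p = 9.91e-07). The heat shock protein Hsp90aa1, which holds the receptor ready to bind hormone, rose by 0.47 in control and 0.48 in diabetic retinas (adjusted p of 1.31e-05 and 7.85e-05). The coactivator Ncoa1 rose by 0.29 and 0.33, and Stip1, which links the 2 heat shock proteins, by 0.55 and 0.37. The cosine test called 8 of the 20 in controls, against 12.2% of all genes, and 5 in diabetic mice, against 14.3%. The fitted Hsp90aa1 peak lay at ZT19.9 and ZT19.4, later than the peaks of the called target genes.

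A second list held 38 other genes known as glucocorticoid targets in various tissues, of which 34 passed the filter, while Pck1, Tat, Il1r2 and Slc10a6 had at most 4 counts in any library. Between genotypes 2 of the 34 were higher in diabetic retinas and none lower over all time points, against 2.99% of all genes called, with a median log2 difference of 0.06 against 0.0012 over all genes. These were Nfkbia, the inhibitor of NF-kappaB, by 0.30 (SE 0.053, adjusted p = 2.53e-04), and Cdkn1a, the cell cycle inhibitor p21, by 0.52 (SE 0.12, adjusted p = 0.00624). Nfkbia was also called at ZT17, where it rose by 0.50 (adjusted p = 0.0218). Nfkbia and Cdkn1a respond to inflammatory and DNA damage signals as well as to glucocorticoids.

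The daily changes of this second list were counted in the same way. From ZT5 to ZT17, 10 of the 34 rose and none fell in control retinas, against 15.1% of all genes called, with a median log2 difference of 0.27 against -0.03 over all genes. In diabetic retinas 8 rose and none fell, against 7.36%, with a median of 0.29 against -0.01. The pigment epithelium, Muller glia and lens markers moved in this contrast as given above, their part was not tested, and without the 7 libraries with lens markers 11 and 8 of the 34 rose. The other contrasts were mixed. From ZT9 to ZT21, 1 of the 34 rose and 2 fell in each genotype, with medians of -0.15 in control and -0.13 in diabetic retinas against -0.01 over all genes in both, and from ZT1 to ZT13, 2 rose and 1 fell in control and 4 rose in diabetic retinas. Without the 7 libraries with lens markers 1 rose and 3 fell from ZT9 to ZT21 in control retinas, with a median of -0.13. In diabetic retinas none was then called at this contrast, and the median was 0.05. From ZT1 to ZT13, 1 rose and 1 fell in control and 2 rose in diabetic retinas without these libraries. From ZT5 to ZT17 the repressor Bcl6 rose by 0.66 and the actin regulator Fam107a by 1.06 in control retinas (adjusted p of 8.54e-06 and 2.04e-05). Fam107a rose by 1.11 and the heparan sulphate proteoglycan Sdc4 by 0.41 in diabetic retinas (adjusted p of 5.04e-05 and 8.70e-04). Of the 34 genes, 10 were rhythmic in controls, against 12.2% of all genes, and 14 in diabetic mice, against 14.3%. The fitted peaks lay at ZT15.0 and ZT14.8 for Fam107a and at ZT13.4 and ZT12.6 for Hif3a, a hypoxia-inducible factor subunit, in control and diabetic retinas.

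Genes of steroid supply, which make, convert or export the hormone, were read from a list of 8, with the efflux transporter Abcb1a among them. Of the 8 genes 5 passed the filter, and Hsd11b2, Cyp11a1 and Cyp11b1, which inactivate corticosterone or synthesise it, had at most 14 counts in any library. None of the 5 was called by edgeR for genotype, rhythm or any pair of time points. Over these 80 combinations of gene and comparison 6 had an unadjusted p under 0.05 and DESeq2 called 2. The lowest adjusted p for genotype over all time points was 0.344.

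The design also allowed the question whether the target genes vary together between retinas of the same genotype and time. Fkbp5 was entered as a covariate beside the 12 groups, and none of the other 6 genes passed the edgeR test (2 at an unadjusted p under 0.05), against 0.858% of the genes tested, 3961 of which had an unadjusted p under 0.05. DESeq2 was not run for this model. The slopes nearest the threshold were those of Zbtb16, at 0.75 log2 units per log2 unit of Fkbp5 (SE 0.26, adjusted p = 0.105), and Klf9, at 0.31 (SE 0.11, adjusted p = 0.111). Without diabetic ZT17 replicate 5 both passed, with slopes of 0.88 and 0.37 and adjusted p-values of 0.0461 and 0.0472. The 5 genes with the smallest p were Rps14, 1700012D14Rik, Prmt1, Klf13 and Galnt11, each with an adjusted p of 0.0210. From the second list Angptl4, an inhibitor of lipoprotein lipase, and Cdkn1a tracked Fkbp5 as well, with slopes of 2.20 and 1.55. Without the 7 libraries with lens markers edgeR called none of all genes for Fkbp5 as the covariate, these 7 included, and 3050 had an unadjusted p under 0.05.

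Pairs of the 7 genes were compared over the 58 libraries after each group mean was removed, with labels permuted within groups 100000 times. Of 21 pairs 8 passed both Pearson and Spearman tests after adjustment over the pairs, 7 with positive and 1 with negative sign. The pairs were not compared without the 7 libraries with lens markers. Relations of this size were common for some of these genes, since among 15967 genes ordered by r with Nr3c1 Sgk1 ranked 1940 and Tsc22d3 2366, and Errfi1 ranked 1323 for Klf9. Taken the other way, Nr3c1 ranked 264 for Sgk1 and 976 for Tsc22d3, and Klf9 ranked 107 for Errfi1. Klf9 ranked 328 for Zbtb16 and Zbtb16 1196 for Klf9, and Sgk1 ranked 872 for Tsc22d3 and Tsc22d3 478 for Sgk1. For Fkbp5 Klf9 ranked 588 and Zbtb16 748, while Fkbp5 ranked 3334 for Klf9 and 2587 for Zbtb16. The strongest was Zbtb16 with Klf9 (r = 0.59, rho = 0.56, adjusted permutation p of 2.1e-04 and 5.25e-04), followed by Klf9 with Errfi1 (r = 0.58, rho = 0.49). Nr3c1 with Sgk1 (r = 0.55, rho = 0.54), Tsc22d3 with Sgk1 (r = 0.51, rho = 0.57) and Nr3c1 with Tsc22d3 (r = 0.49, rho = 0.52) made a second set. Nr3c1 with Zbtb16, across these sets, was negative (r = -0.47, rho = -0.53). Fkbp5 was related to genes of the first set, with r = 0.39 and rho = 0.42 to Klf9 and r = 0.37 and rho = 0.37 to Zbtb16. The unadjusted p of r for Zbtb16 with Klf9, 1e-05, is the smallest that 100000 permutations can give, and the adjusted permutation p-values of the 8 pairs were at most 0.0104 for r and 0.0175 for rho. All 8 kept their sign within control and within diabetic retinas, and without the 2 libraries farthest from the median of the first gene they lay between 0.40 and 0.58, or at -0.43 for Nr3c1 with Zbtb16. Whether RNA quality or dissection time moves with these deviations was not tested. Of 26 same-numbered pairs of control and diabetic libraries, 19 had a correlation of deviations over 0.1 across genes. The permutations treated libraries as independent, so their p-values do not allow for such shared deviations.

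**Figure D4:**
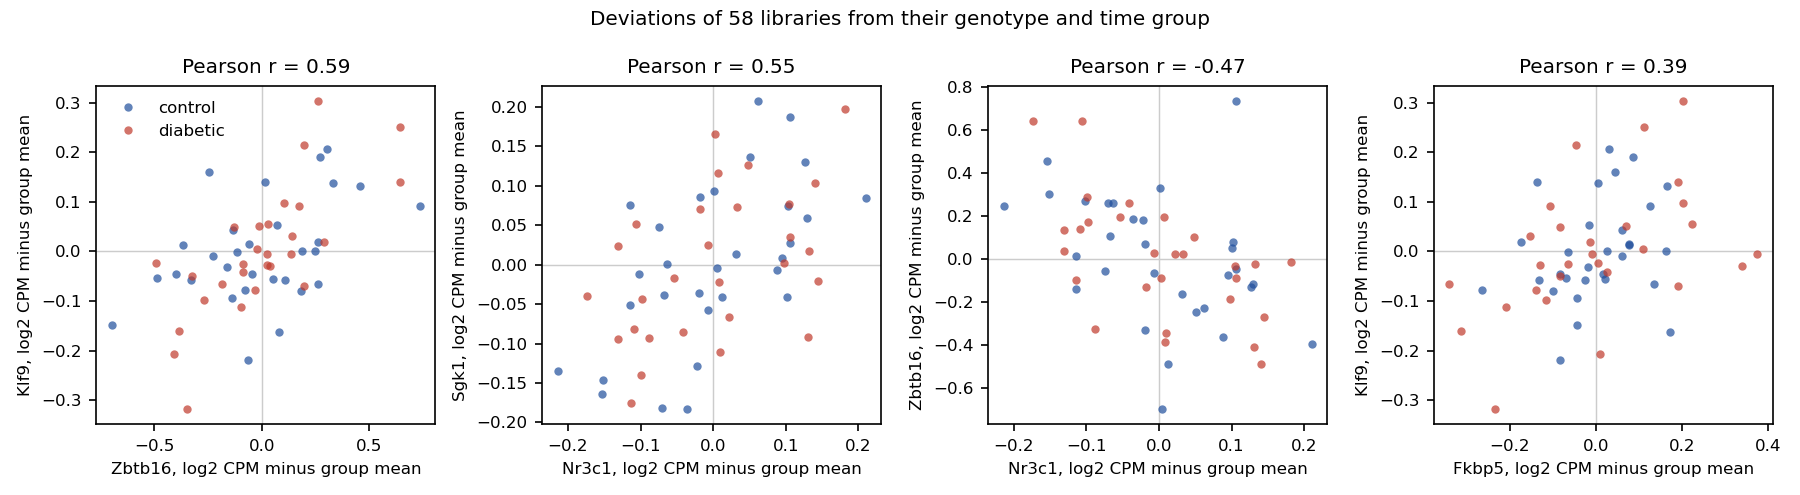
Deviations of log2 CPM from the mean of the genotype and time group for 4 pairs of genes, with 1 point per library and genotypes in colour. Zbtb16 rises with Klf9 (r = 0.59), Nr3c1 with Sgk1 (r = 0.55) and Fkbp5 with Klf9 (r = 0.39), whereas Nr3c1 and Zbtb16 run in opposite directions (r = -0.47).

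Over the 12 group means the genes most like each member in pattern were found by Pearson's r among 15967 genes with a mean of at least 1 CPM, as a description of 12 points only. For Nr3c1 they were Hist2h2be, Lrrc46 and Tcf20 (0.94, 0.92 and 0.92), and for Fkbp5 they were Mpp3, E230001N04Rik and Klf13 (0.94, 0.93 and 0.92). For Tsc22d3 they were Arrdc2, Ramp2 and Car14 (0.93, 0.93 and 0.92), for Sgk1 Sarm1, Arid5b and Mdc1 (0.94, 0.93 and 0.93), and for Errfi1 Zfp467, Slc41a1 and Trps1 (0.94, 0.93 and 0.91). For Zbtb16 they were Rgs9, Tnfsfm13 and Pdlim5 (0.93, 0.91 and 0.91), and for Klf9 Gnb5, B4galt6 and Zhx3 (0.95, 0.95 and 0.94). Klf13, among the nearest to Fkbp5 over group means, was also among the 5 genes with the smallest p for the Fkbp5 covariate, of which none was called without the 7 libraries with lens markers.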

How the data were processed

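The count table deposited by the authors held whole-number counts per gene for 58 libraries, made with STAR 2.7.4a on GRCm38.p5 and HTSeq 0.11.1 per the labels, from ribosome-depleted RNA. The strand setting is not given in the sources used here, and 0 columns were left without a sample. Genes with a median DESeq2-normalised count above 4 were kept. edgeR 4.0.16 (R 4.3.3) was used with TMM scaling and its quasi-likelihood test, with p-values adjusted by Benjamini and Hochberg over all genes tested and a threshold of 0.05. One fit had genotype alone, one the 12 groups, one cosine and sine terms of 24 h for each genotype, and one the 12 groups with log2 CPM (prior count 2) of Fkbp5. CPM were computed from TMM-scaled totals, and 95% intervals of fold changes with 46 degrees of freedom. The fits were tested on simulated data. Gene positions came from Gencode M21, and motifs were counted by exact match. The 7 genes and all lists were chosen with earlier results of these data known. Named genes were all 7 genes, up to 4 called genes with the smallest p per list and comparison, the 3 genes most like each member in pattern over group means (mean of at least 1 CPM), and the 5 with the smallest p for the Fkbp5 covariate. Alternatives were RLE scaling, other filters, DESeq2 1.42.0, left-out libraries and time points, a replicate block, a rank test after empirical JTK_CYCLE (unadjusted p under 0.05 and a fold above 1.25 between the highest and lowest library) and, chosen after the data were seen, leaving out 7 libraries with lens markers above 20 CPM. The total counts per library set the precision, and Zbtb16, with 55 counts in its lowest library, carried the largest counting error of the 7 genes. The check of the tissue by photoreceptor markers is not reported here.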

Additional observations from a re-analysis of the deposited data

Results flagged for a closer look

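In 4 of the 84 groups formed by gene, genotype and time, 1 library stood far from the others by Dixon's test, which chance alone gives in about 5% of groups. Fkbp5 reached 42.6 CPM in diabetic ZT17 replicate 5, where the other 3 libraries lay between 29.5 and 31.0 CPM. Klf9 reached 148 CPM in diabetic ZT5 replicate 4, where the other 4 lay between 111 and 118 CPM. Zbtb16 reached 17.0 CPM in control ZT13 replicate 4, where the other 4 lay between 12.6 and 13.4 CPM. Errfi1 reached 35.0 CPM in control ZT21 replicate 4, where the other 3 lay between 28.1 and 28.8 CPM. These are 4 different libraries, and each was the highest of its group.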

How the results depend on the processing

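Over the alternatives other than left-out libraries, 877 of 898 values of single genes kept their side of the threshold and none reversed, directions being read only where a test passed. These values include genotype at single time points and the difference in rhythm, where no member was called in the main fit. The share that kept its side is therefore no measure of how firm the calls were. The single gene called for genotype, Fkbp5, was called under every alternative run, with a log2 difference from 0.20 to 0.26 and adjusted p-values from 4.5e-04 to 0.0410. The number of members rhythmic in control retinas was 2, and it was 1 without ZT5, 4 with the replicate block (Errfi1 and Tsc22d3 added, adjusted p of 0.0242 and 0.0213) and 5 in the rank test (Errfi1, Tsc22d3 and Fkbp5 added), which called 21.8% of all genes. The minimum fold that the rank test asked for was taken between single libraries, a choice made here, and none of these 3 added genes reached it between group means. In diabetic retinas the rank test called 4 members, against 23.9%. The number of calls of members over the 3 pairs of time points 12 h apart was 4 in control retinas, and 2 without a filter on low counts. In diabetic retinas it was 4 calls of 3 members, and 2 without the 7 libraries with lens markers. With Tsc22d3 in place of Fkbp5 as the covariate, 2 members were called, Nr3c1 and Sgk1, against 24% of all genes. Leaving out 1 library at a time gave 1 to 2 members called for genotype over all time points, 0 to 0 for genotype at single time points, 2 to 2 rhythmic in control, 3 to 4 rhythmic in diabetic retinas, 0 to 0 with a difference in rhythm, 3 to 4 and 3 to 5 calls 12 h apart in control and diabetic retinas, and 0 to 2 that track Fkbp5. Those removals also brought 3 contrasts of diabetic retinas under the threshold, Fkbp5 and Zbtb16 between ZT13 and ZT1 (6 and 4 libraries) and Tsc22d3 between ZT17 and ZT5 (2 libraries). DESeq2 called Fkbp5 and Zbtb16 between ZT13 and ZT1 too (adjusted p of 0.0393 and 0.0375). The cause of these changes was not tested. The 164 genes that tracked Fkbp5 over the whole table became 0 without the libraries with lens markers (3050 at an unadjusted p under 0.05, DESeq2 not run), 113 without a filter, 291 with RLE scaling, 346 with the replicate block and 478 with filterByExpr. The 572 genes called for genotype over all time points became 361 without the libraries with lens markers and 226 to 357 without ZT1, ZT5, ZT9, ZT17 or ZT21. Between ZT13 and ZT1 the calls went from 162 to 58 in control and from 268 to 163 in diabetic retinas without the libraries with lens markers, and between ZT21 and ZT9 in diabetic retinas from 972 to 302 without these libraries and to 564 without a filter. Without a filter they also went from 268 to 175 between ZT13 and ZT1 in diabetic and from 445 to 294 between ZT21 and ZT9 in control retinas. Counts of genes between genotypes at the other single time points were at most 24 under the other scaling, filters, block, DESeq2 and the removal of the libraries with lens markers. Rhythmic genes in control retinas went from 2337 to 758 without ZT17 and 1168 without ZT5, and in diabetic retinas from 2736 to between 1347 and 1802 without ZT9, ZT17 or ZT21. At ZT17 the 32 genes called between genotypes became 87 by DESeq2 and 60 with the replicate block. The replicate numbers were not taken to pair the samples, because the labels do not say that they do and not every pair was correlated: of 26 same-numbered pairs of control and diabetic libraries 19 had a correlation of deviations over 0.1, and 15 correlated best with their own number, which is a hint from the data and not from the design. With the replicate block Fkbp5 was still the 1 member called for genotype (log2 difference 0.21, adjusted p = 0.0175), and Tsc22d3 between ZT17 and ZT5 and Zbtb16 between ZT13 and ZT1 passed in diabetic retinas.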
